A study of Mus musculus with 12 samples.

Results

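The 10 BCL2 family genes described here in mouse neutrophils are the survival genes Mcl1, Bcl2l1, Bcl2 and the 3 near-identical copies Bcl2a1a, Bcl2a1b and Bcl2a1d, the BH3-only death genes Bcl2l11 and Bid, and the pore-forming effectors Bax and Bak1. They were found by gene identifier and make up 10 of the 15986 genes with counts, and all 10 passed the filter on low counts that left 10802 genes for testing. Mature bone-marrow neutrophils from C57BL/6 animals were isolated on Anti-Ly6G beads and held for 6 h. The 4 groups were Rab27aKO with 5 µM CpG-B, Rab27aKO without it, wild-type with CpG-B and wild-type without it, with 3 libraries each, numbered 1 to 3. CpG-B is a synthetic DNA that is sensed by the endosomal receptor TLR9. The untreated condition is called vehicle in one label and untreated in another. No source used here gives the Rab27a allele, whether it is lost in all cells of the animal, or the age, sex and number of animals. P-values here refer only to how these libraries vary, and that variation may be technical.

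BCL2 family proteins set whether the outer membrane of the mitochondrion stays closed. BAX and BAK open it, survival members such as MCL1, BCL-XL (from Bcl2l1), BCL2 and A1 (from the Bcl2a1 genes) hold them back, and BH3-only proteins such as BIM (from Bcl2l11) and BID bind both sides and favour opening. Neutrophils are short-lived cells that are known to depend on MCL1, a protein with a fast turnover, while A1 is an inducible survival protein of blood cells and a known NF-kB target. In the mouse A1 is encoded by several copies on chromosome 9, the chromosome that also carries Rab27a.

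The 3 Bcl2a1 copies come first because reads are hard to assign among them. Each has a coding sequence of 519 bases in the reference annotation, and 12 of these positions differ among the 3, so that 97.7% are shared by all. Bcl2a1a and Bcl2a1b differed at 11 positions, Bcl2a1a and Bcl2a1d at 7, and Bcl2a1b and Bcl2a1d at 6. On build GRCm38.p6 the coding parts span chr9:88957051-88962270 (Bcl2a1a, plus strand), chr9:89199360-89207680 (Bcl2a1b, plus strand) and chr9:88723434-88731719 (Bcl2a1d, minus strand), in 2 exons each. The first 150 coding bases are shown because they hold 7 of the 12 differing positions, which are in capitals.
Bcl2a1a: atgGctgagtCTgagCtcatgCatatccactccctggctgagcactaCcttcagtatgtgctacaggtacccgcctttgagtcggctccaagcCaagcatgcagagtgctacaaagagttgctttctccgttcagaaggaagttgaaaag
Bcl2a1b: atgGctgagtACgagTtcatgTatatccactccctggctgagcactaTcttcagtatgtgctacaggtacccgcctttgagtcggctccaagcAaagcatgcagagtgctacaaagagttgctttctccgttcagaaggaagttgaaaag
Bcl2a1d: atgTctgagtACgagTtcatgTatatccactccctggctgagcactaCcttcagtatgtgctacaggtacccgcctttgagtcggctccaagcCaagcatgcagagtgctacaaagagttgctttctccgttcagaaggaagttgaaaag
Reads that cover none of the capitals cannot be told apart by sequence within this stretch. Of all stretches of 100 bases in each annotated transcript, 43.5% of those of Bcl2a1a, 31.1% of those of Bcl2a1b and 54.7% of those of Bcl2a1d also occur in another copy. The deposited values were estimated counts that divide such reads by a model, so each copy is given singly and the 3 are also given as a sum, which does not depend on the division among them.

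The upstream regions of the copies were also alike. A stretch of 120 bases upstream of each annotated start (RefSeq, GRCm38.p6) is shown because the 3 copies moved together. The capitals mark the letters GAGGAAGT, the core of a PU.1 (Spi1) motif, PU.1 being a transcription factor of myeloid and B cells. The motif was chosen after the sequences were seen.
Bcl2a1a, chr9:88956756-88956875, plus strand: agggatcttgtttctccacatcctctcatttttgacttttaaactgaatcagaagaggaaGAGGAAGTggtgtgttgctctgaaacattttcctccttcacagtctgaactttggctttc
Bcl2a1b, chr9:89199065-89199184, plus strand: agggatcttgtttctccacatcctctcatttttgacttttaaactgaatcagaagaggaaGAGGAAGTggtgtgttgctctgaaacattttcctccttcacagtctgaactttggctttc
Bcl2a1d, chr9:88731895-88732014, minus strand: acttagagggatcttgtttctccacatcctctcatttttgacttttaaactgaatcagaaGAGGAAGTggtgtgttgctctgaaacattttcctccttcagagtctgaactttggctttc
The match began 104 bases before the annotated start in Bcl2a1a, 148 in Bcl2a1b and 104 in Bcl2a1d. The 52 bases after it were the same in Bcl2a1a and Bcl2a1b and differed from those of Bcl2a1d at 1 position. The promoters searched for motifs had a common length, longer than the 120 bases shown. On either strand GAGGAAGT was found in 3.2% of 32851 annotated promoters. It was in 4 of the 13 promoters annotated for the members, those of the 3 Bcl2a1 copies and of Bak1. A canonical NF-kB motif of 10 letters (in 0.16% of all promoters) and a STAT motif (TTCNNNGAA, in 8.3%) were found in none of the 13. A match is a description of the letters only, and no match says nothing about the factor.

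Levels can be compared between genes only per length, and for that the authors' TPM values were summed over the transcripts of each gene. Mcl1 had the highest TPM of the family in all 4 groups, at 427 ± 63.5 TPM in Rab27aKO with CpG, 435 ± 15.2 TPM in Rab27aKO without, 392 ± 42.4 TPM in wild-type with CpG and 337 ± 43.8 TPM in wild-type without (SD, n = 3 each, as for all means here). Bax was second, at 140 ± 32 TPM, 138 ± 8.2 TPM, 141 ± 29.6 TPM and 117 ± 24 TPM in the same groups. Bcl2 was last, with group means between 0.213 and 0.363 TPM. These first, second and last places were held without overlap between libraries in each group.

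The place of the Bcl2a1 sum depended on CpG. It took rank 3 of 8 with CpG, at 90.1 ± 28.2 TPM in Rab27aKO and 57.1 ± 16.7 TPM in wild-type cells. Without CpG it took rank 7, at 8.22 ± 1.51 TPM in Rab27aKO and 7.32 ± 2.45 TPM in wild-type cells, below every library of Bak1. With CpG its range in both genotypes overlapped that of Bid, the next gene in the order, and Bid, Bcl2l11 and Bcl2l1 overlapped their neighbours in turn. Bcl2l1 and Bak1 also overlapped in Rab27aKO with CpG (29.1 to 53 TPM against 22.3 to 35.7 TPM). Without CpG the neighbours that overlapped were Bcl2l1 and Bid in both genotypes and, in wild-type cells, Bak1 and Bcl2l11.

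**Figure D1:**
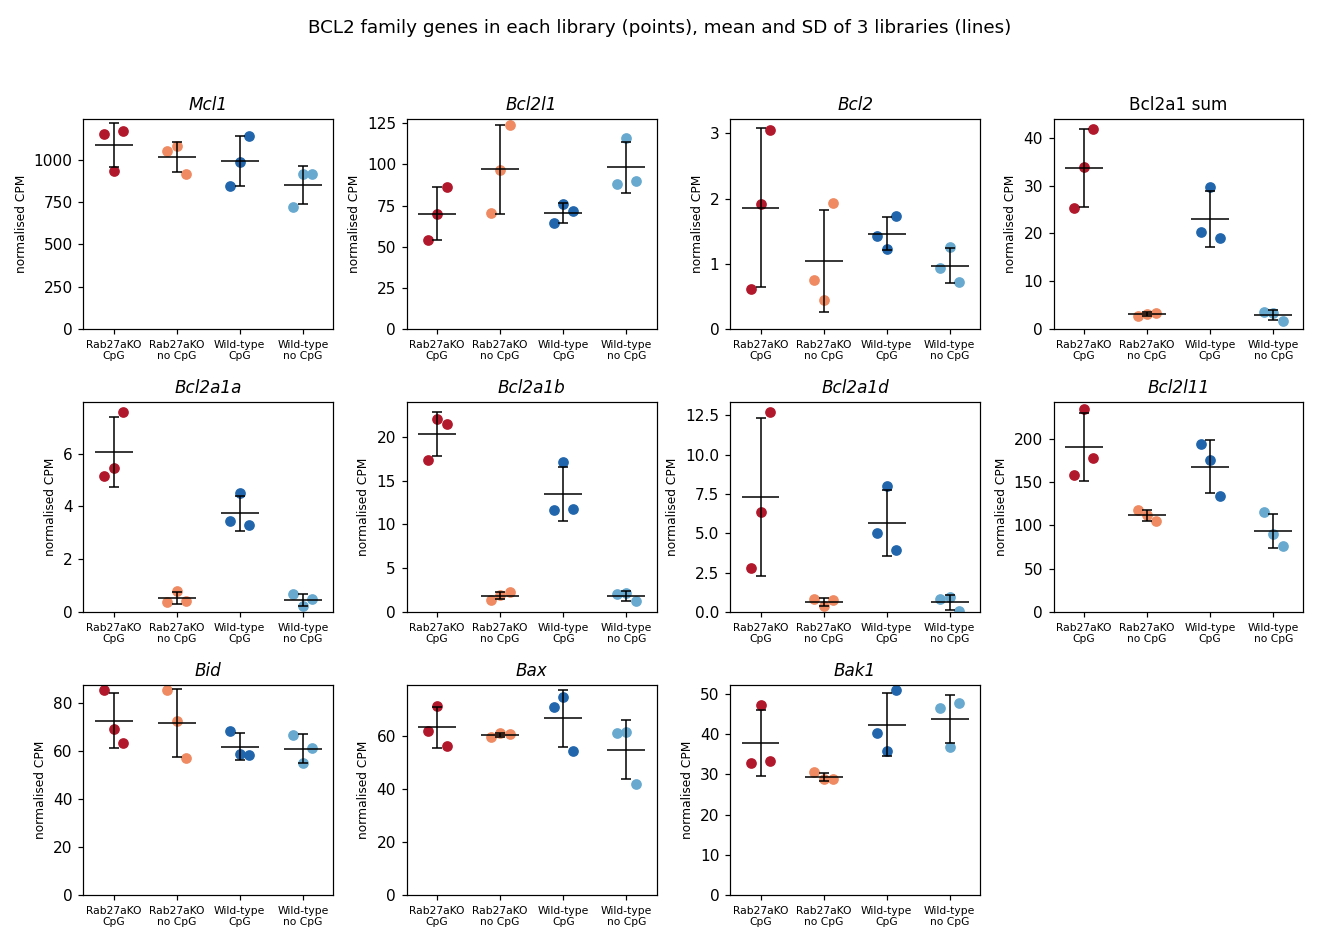
Normalised CPM (y axes, linear, from 0) of the members and the Bcl2a1 sum in each library (points), by group (x axes), with the mean and SD of 3 libraries as lines. The 6 CpG libraries of the Bcl2a1 sum lie between 19.1 and 41.8 CPM, above the 6 without CpG, while the groups of Mcl1, Bid and Bax overlap with and without CpG.

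The Bcl2a1 genes rose with CpG in both genotypes. The sum of the copies stood at 25.4, 33.9 and 41.8 normalised CPM (counts scaled to library size with TMM factors) in Rab27aKO libraries 1 to 3 with CpG, against 2.64, 3.07 and 3.43 CPM without it. In wild-type libraries it stood at 20.2, 29.7 and 19.1 CPM with CpG, against 3.58, 3.38 and 1.76 CPM without it. The groups were far apart in both genotypes, and the lowest CpG library lay more than 5-fold above any library without CpG. The rise was 11-fold in Rab27aKO (log2 3.46, SE 0.28, adjusted p = 1.62e-06) and 7.89-fold in wild-type cells (log2 2.98, SE 0.27, adjusted p = 1.1e-05), where the edgeR adjusted p is that of the quasi-likelihood test after Benjamini-Hochberg adjustment over all genes tested. The counts behind the sum were 291, 496 and 535 in Rab27aKO with CpG and 28, 35 and 41 without, and 269, 388 and 221 in wild-type with CpG and 42, 46 and 22 without.

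Each copy passed the test singly in both genotypes. Bcl2a1b, the copy with most counts, stood at 17.4, 22.1 and 21.5 CPM in Rab27aKO with CpG, against 1.42, 1.93 and 2.26 CPM without, and at 11.7, 17.1 and 11.8 CPM in wild-type with CpG, against 2.05, 2.2 and 1.2 CPM without. Its log2 fold change was 3.43 (SE 0.25) in Rab27aKO and 2.89 (SE 0.25) in wild-type cells, with edgeR adjusted p-values of 8.25e-07 and 6.92e-06. Neither genotype had a Bcl2a1b library with CpG near one without it. Bcl2a1a averaged 6.07 ± 1.32 CPM in Rab27aKO with CpG and 0.529 ± 0.227 CPM without (log2 3.49, SE 0.38; edgeR adjusted p = 2.92e-05). In wild-type cells it averaged 3.75 ± 0.666 CPM with CpG and 0.461 ± 0.232 CPM without (log2 3.02, SE 0.39; edgeR adjusted p = 0.000208). Its counts were 3 to 9 per library without CpG and 38 to 97 with it. Bcl2a1a therefore passed the filter on low counts only through libraries with CpG.

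Bcl2a1d was the most variable copy. It stood at 2.79, 6.36 and 12.7 CPM in Rab27aKO libraries 1 to 3 with CpG, against 0.85, 0.351 and 0.754 CPM without (log2 3.47, SE 0.64; edgeR adjusted p = 0.0025). In wild-type libraries it stood at 5.03, 8.03 and 3.97 CPM with CpG, against 0.853, 0.955 and 0.0802 CPM without (log2 3.15, SE 0.64; edgeR adjusted p = 0.00812). The groups did not overlap, but the Rab27aKO libraries with CpG spread over more than 4-fold. Bcl2a1d had 1 to 13 counts per library without CpG and 32 to 163 with it. Because the copies share reads, a value of one copy alone carries the uncertainty of how those reads were divided. The copies and their sum kept their calls under every alternative processing tried, with the log2 change of the sum between 3.26 and 3.62 in Rab27aKO and between 2.71 and 3.14 in wild-type cells.

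The split among the copies was similar in all groups. Bcl2a1b held 61.7 ± 9.13% of the summed counts in Rab27aKO with CpG, 60.8 ± 6.41% in Rab27aKO without, 59.2 ± 2.4% in wild-type with CpG and 63.5 ± 5.74% in wild-type without. Bcl2a1a held 18.2 ± 2.1%, 17.4 ± 7.26%, 16.5 ± 1.13% and 17.6 ± 10.5% in the same groups. The share of Bcl2a1d in single libraries ran from 4.55% (wild-type without CpG, library 3) to 32.1% (Rab27aKO without CpG, library 1).

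**Figure D2:**
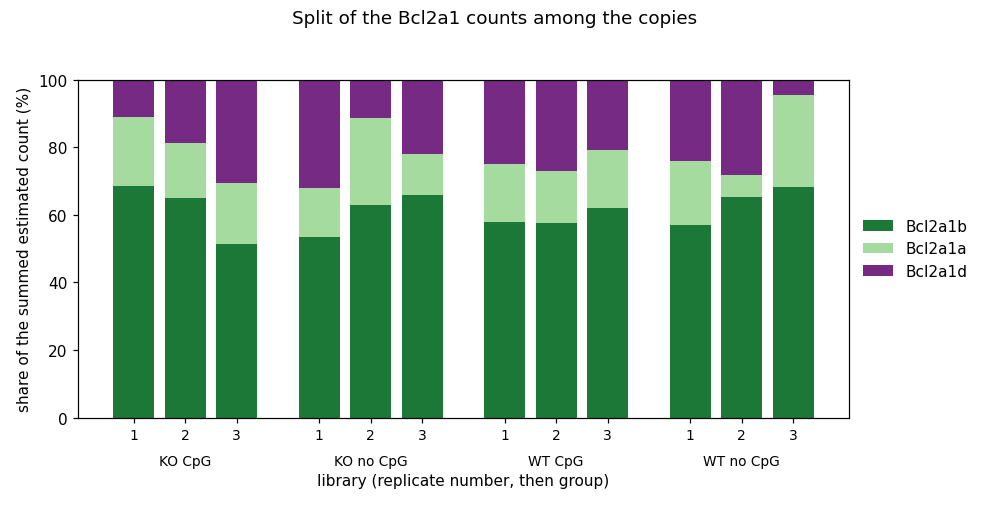
Share of the summed estimated counts of the 3 Bcl2a1 copies (y axis, percent) held by each copy in each library (x axis, replicate number within group). Bcl2a1b holds over 50% of every bar, and the Bcl2a1d part varies most between libraries.

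Mcl1, the main survival gene by level, showed no called change with CpG. It stood at 1150, 935 and 1170 CPM in Rab27aKO with CpG, against 1050, 1080 and 915 CPM without, and the groups overlapped (log2 0.10, SE 0.15, 95% interval -0.22 to 0.41; edgeR adjusted p = 0.789). In wild-type libraries it stood at 844, 988 and 1140 CPM with CpG, against 721, 914 and 915 CPM without, again with overlap (log2 0.22, SE 0.15, interval -0.09 to 0.54; edgeR adjusted p = 0.546). The upper ends of both intervals lie below 1 on the log2 scale. A single transcript held between 97.7 and 99% of the Mcl1 counts in every library.

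Bcl2l1, which encodes BCL-XL, had lower mean levels with CpG in both genotypes. It stood at 64.2, 76.2 and 71.7 CPM in wild-type libraries with CpG, against 88.3, 116 and 90.2 CPM without, and these groups did not overlap. The log2 change was -0.47 (SE 0.2; edgeR adjusted p = 0.249), which does not pass. When the libraries of both genotypes were paired by number in a single fit (animal block), it was -0.47 in wild-type cells. Its edgeR adjusted p there was 0.00162, which passes. In Rab27aKO libraries it stood at 54, 70 and 86.3 CPM with CpG, against 70.3, 96.6 and 124 CPM without, and the groups overlapped (log2 -0.47, SE 0.2; edgeR adjusted p = 0.18). Each Rab27aKO library with CpG was below the untreated library of the same number. The animal block fit gave -0.46 there, with an edgeR adjusted p of 0.00116. The numbers of the Rab27aKO libraries did not meet the rule for pairing given below. The Bcl2l1 counts were divided over 8 transcripts, and the share of the main one ran from 49.7% to 88.1%, both ends in Rab27aKO libraries with CpG (3 and 1), so Bcl2l1 is given as the sum over its transcripts.

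Bcl2 had few counts. Its counts were 7, 28 and 39 in Rab27aKO with CpG and 8, 5 and 23 without, and 19, 16 and 20 in wild-type with CpG and 11, 17 and 9 without. Levels ran from 0.439 to 3.05 CPM over all libraries, and no comparison passed. The CpG change had wide intervals, from -0.39 to 2.05 on the log2 scale in Rab27aKO and from -0.67 to 1.82 in wild-type cells.

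The make-up of the survival side shifted accordingly. Of the summed TPM of Mcl1, Bcl2l1, Bcl2 and the Bcl2a1 copies, the copies held 16.1 ± 4.52% in Rab27aKO with CpG, against 1.63 ± 0.276% without. In wild-type cells they held 11.6 ± 2.79% with CpG, against 1.85 ± 0.711% without. Mcl1 remained the main part throughout, at 76.5 ± 5.82% with CpG against 86.2 ± 4.07% without in Rab27aKO, and 80 ± 3.29% against 83.9 ± 2.08% in wild-type cells. The Bcl2a1 sum exceeded Bcl2l1 in TPM in every CpG library (ratio 1.98 to 2.52 in Rab27aKO, 1.13 to 1.66 in wild-type), while without CpG it was between 0.0891 and 0.172 of Bcl2l1 in both genotypes together. These shares describe RNA, not protein.

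**Figure D3:**
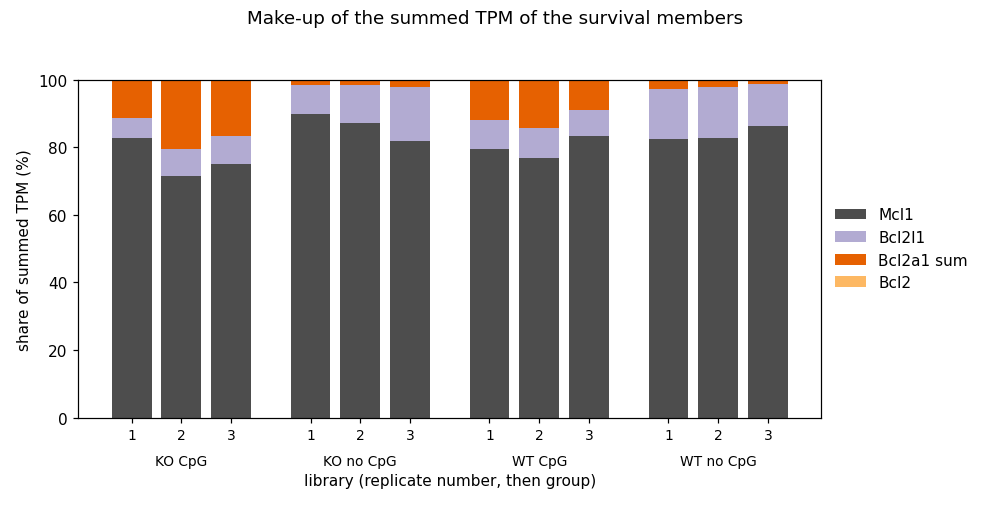
Share of the summed TPM of the survival members (y axis, percent) held by Mcl1, Bcl2l1, the Bcl2a1 sum and Bcl2 in each library (x axis, replicate number within group). The Bcl2a1 part is between 8.73 and 20.3% in the 6 libraries with CpG and between 1.12 and 2.54% in the 6 without, and Bcl2 is too small to see.

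On the death side, Bcl2l11 rose in both genotypes. BIM, its product, is a potent BH3-only protein. Bcl2l11 stood at 158, 234 and 178 CPM in Rab27aKO with CpG, against 118, 112 and 105 CPM without, a 1.7-fold rise (log2 0.77, SE 0.18; edgeR adjusted p = 0.0128). In wild-type libraries it stood at 194, 175 and 134 CPM with CpG, against 115, 89.9 and 75.7 CPM without, a 1.79-fold rise (log2 0.84, SE 0.18; edgeR adjusted p = 0.012). The groups did not overlap in either genotype.

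The Bcl2l11 call was lost without any 1 of 3 of the 12 libraries in Rab27aKO and any 1 of 4 in wild-type cells. In Rab27aKO the edgeR adjusted p was 0.0525 without library 2 of the untreated group, 0.0554 without library 3 of it, and 0.0642 without library 2 of the CpG group. In wild-type cells it was 0.0615 and 0.062 without libraries 2 and 3 of the untreated group, and 0.0622 and 0.0553 without libraries 1 and 2 of the CpG group. The log2 change stayed between 0.58 and 0.91 in Rab27aKO and between 0.69 and 1.01 in wild-type cells under every alternative tried. Among the 9 transcripts counted, 2 held 87.8 to 95.4% of the Bcl2l11 counts in every library, at 40.5 to 53.1% and 39.2 to 53.1% each. In wild-type cells the first held 41.4 to 49.6% with CpG, against 48.7 to 53.1% without, and in Rab27aKO 40.5 to 51.4% against 41 to 46.2%. The second held 45.8 to 53.1% with CpG in wild-type cells, against 39.2 to 42.1% without, with no overlap. In Rab27aKO it held 43.8 to 52.3% against 45.8 to 49.5%, which overlap. These shares were not tested.

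FOXO factors are known regulators of Bcl2l11, and its annotated promoter was the only one of the 13 with the FOXO motif GTAAACA, in capitals here, which 3.65% of all promoters hold on either strand. It began 227 bases before the annotated start.
Bcl2l11, chr2:128125791-128125840, plus strand: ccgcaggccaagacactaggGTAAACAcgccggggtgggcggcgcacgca
Foxo3, which encodes one such factor, averaged 163 ± 21.4 CPM in Rab27aKO with CpG and 210 ± 16.5 CPM without, and 131 ± 7.36 CPM in wild-type with CpG and 174 ± 18.6 CPM without. Neither difference passed (log2 -0.36 and -0.41; edgeR adjusted p = 0.0737 and 0.0648). Both passed with DESeq2 (adjusted p = 0.0295 and 0.014) and with library size scaling (edgeR adjusted p = 0.00438 and 0.00984), and in all 6 of 22 alternatives made a call in Rab27aKO and 8 in wild-type cells. In the animal block fit the wild-type change was -0.41 with an edgeR adjusted p of 0.0031.

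Bid, cleaved by caspase-8 to link death receptors to mitochondria, had the smallest CpG changes of the family in both genotypes. It averaged 72.6 ± 11.4 CPM in Rab27aKO with CpG and 71.6 ± 14.1 CPM without (log2 0.02, 95% interval -0.31 to 0.35). In wild-type cells it averaged 61.7 ± 5.72 CPM with CpG and 61 ± 5.86 CPM without (log2 0.02, interval -0.31 to 0.35). All 4 groups overlapped.

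Bax averaged 63.3 ± 7.72 CPM in Rab27aKO with CpG and 60.6 ± 0.759 CPM without (log2 0.06, SE 0.16; edgeR adjusted p = 0.878). In wild-type libraries 1 to 3 it stood at 71, 74.7 and 54.6 CPM with CpG, against 61.3, 61.5 and 42 CPM without. The wild-type groups overlapped, but each CpG library was above the untreated library of the same number. The log2 change was 0.28 (SE 0.16; edgeR adjusted p = 0.431), and in the animal block fit it was 0.29 with an edgeR adjusted p of 0.0378.

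Bak1, the other effector, stood at 32.9, 47.2 and 33.2 CPM in Rab27aKO with CpG, against 30.5, 28.8 and 28.9 CPM without. These groups did not overlap, but the difference did not pass (log2 0.36, SE 0.17; edgeR adjusted p = 0.216). In wild-type cells it averaged 42.4 ± 7.79 CPM with CpG and 43.7 ± 5.99 CPM without (log2 -0.04, SE 0.16; edgeR adjusted p = 0.958).

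Set against all genes, 4 of the 10 members rose with CpG in each genotype, the 3 Bcl2a1 copies and Bcl2l11. None fell in this fit, which has no block. Of all genes tested, 11.6% passed with CpG in Rab27aKO (7.57% rose and 4.06% fell), and 6.04% passed in wild-type cells (4.74% rose and 1.3% fell). Of these 4, 3 are copies that share reads, so they count as little more than 1 observation. Of the copies, Bcl2a1a was tested at all only because of its counts with CpG. In the animal block fit Bcl2l1 was called lower in both genotypes (edgeR adjusted p = 0.00162 in wild-type, 0.00116 in Rab27aKO). Bax was called higher in wild-type cells there (0.0378). That fit called 1824 of all genes in wild-type cells and 2591 in Rab27aKO. The median log2 change of the members was 0.56 in Rab27aKO and 0.43 in wild-type cells, against -0.01 for all genes in both. These medians count each of the 3 copies singly, which raises them. Without overlap between groups, 5 members were higher with CpG in Rab27aKO (12.7% of all genes), and 4 were higher (14.5%) and 1, Bcl2l1, was lower (11.2%) in wild-type cells.

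**Figure D4:**
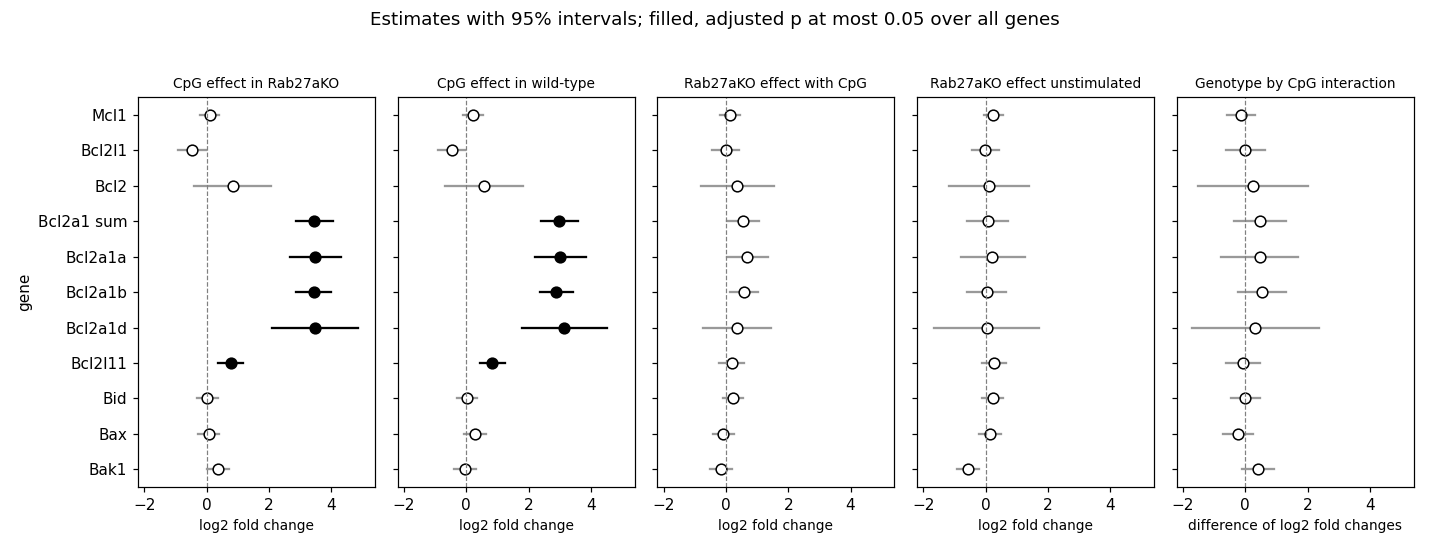
Log2 fold changes (x axes) of each member and the Bcl2a1 sum (rows) in the 5 comparisons, with 95% intervals, fitted without a block. Filled points have an adjusted p of at most 0.05 over all genes. Only the Bcl2a1 rows and Bcl2l11 are filled, in both CpG comparisons, and no point is filled in the genotype comparisons or the interaction.

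Whether the loss of Rab27a changes these genes was asked in cells with and without CpG. As a check of the labels, the Rab27a levels of the 2 genotypes did not overlap. Rab27a stood at 113, 113 and 96.1 CPM in Rab27aKO with CpG, against 207, 216 and 285 CPM in wild-type with CpG, and at 129, 116 and 94.9 CPM in Rab27aKO without CpG, against 231, 251 and 335 CPM in wild-type without. The log2 difference was -1.14 with CpG and -1.26 without (SE 0.17 each; edgeR adjusted p = 0.00112 and 0.000365). Which part of Rab27a is deleted is stated in no source used here, and its counts sum all transcripts.

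With CpG, none of the 10 members passed the test between genotypes, where 3.92% of all genes did. The Bcl2a1 sum averaged 33.7 ± 8.22 CPM in Rab27aKO and 23 ± 5.82 CPM in wild-type cells, and the groups overlapped. The difference was 1.47-fold (log2 0.55, SE 0.23, 95% interval 0.05 to 1.05), with an edgeR adjusted p of 0.225. Bcl2a1b (log2 0.59, SE 0.21; edgeR adjusted p = 0.162) and Bcl2a1a (log2 0.69, SE 0.3; edgeR adjusted p = 0.244) did not overlap between genotypes with CpG, as was the case for 10.3% of all genes in that direction. Without library 3 of Rab27aKO with CpG the log2 difference was 0.38 for the sum and -0.28 for Bcl2a1d, against 0.36 for Bcl2a1d with it. Neither passed either way.

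Without CpG, none of the members passed between genotypes either, where 4.75% of all genes did. Bak1 was nearest, with 30.5, 28.8 and 28.9 CPM in Rab27aKO, against 46.4, 36.8 and 47.8 CPM in wild-type libraries. All 3 knockout libraries were below all 3 wild-type ones, as for 13% of all genes. The difference was 0.674-fold (log2 -0.57, SE 0.17, 95% interval -0.93 to -0.21; edgeR adjusted p = 0.0757). It passed with DESeq2 (adjusted p = 0.0429), and in edgeR with no filter on low counts (0.0434), with only the 6 untreated libraries fitted (0.0264) and without library 2 of Rab27aKO with CpG (0.0335). With CpG the Bak1 difference was -0.16 (interval -0.52 to 0.19).

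Mcl1 was 1.19-fold higher in Rab27aKO than in wild-type cells without CpG (log2 0.25, SE 0.15, edgeR adjusted p = 0.418). The groups did not overlap, as for 12% of all genes in that direction, though the nearest libraries both round to 915 CPM. The Bcl2a1 sum stood at 3.05 ± 0.395 CPM in Rab27aKO and 2.91 ± 0.997 CPM in wild-type cells without CpG, a log2 difference of 0.07 with an interval from -0.58 to 0.73. Bcl2l11 averaged 112 ± 6.75 CPM in Rab27aKO and 93.5 ± 19.8 CPM in wild-type cells (log2 0.26; edgeR adjusted p = 0.522). For Bcl2l1 the genotype difference was -0.02 without CpG and -0.01 with it, with both intervals between -0.45 and 0.42. The median of the members, with each Bcl2a1 copy counted singly, was 0.21 with CpG and 0.12 without, against 0 and -0.01 for all genes.

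The CpG change of the members was not shown to differ between genotypes. In the test of the difference itself (the interaction), no member and no gene passed in edgeR (0% of genes); 365 genes and no member had an unadjusted p under 0.05, and DESeq2 called 3 genes, none of them a member. The CpG rise of the Bcl2a1 sum was 0.48 higher on the log2 scale in Rab27aKO (SE 0.38, 95% interval -0.35 to 1.31; edgeR adjusted p = 1). For Bcl2l11 it was -0.08 (interval -0.62 to 0.47) and for Mcl1 -0.12 (interval -0.57 to 0.32). The interval for the Bcl2a1 sum is wide enough to hold a difference of 1 on the log2 scale, and those for Bcl2l11 and Mcl1 are not.

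Marker genes of several cell types differed between the libraries, which touches several of these values. All 12 mature neutrophil markers, among them S100a8, S100a9 and Ly6g, were detected in every library, with summed levels of 57400 to 94000 CPM. The lowest sum was that of library 2 of Rab27aKO with CpG, where S100a8 stood at 5380 CPM and S100a9 at 21500 CPM. Other markers of the list did not follow them, as the same library had the highest Mxd1 of all 12 (3670 CPM) and the highest Cxcr2 of the Rab27aKO libraries (1860 CPM). It also had the highest Bcl2l11 of all 12 (234 CPM) and the highest Bak1 of the Rab27aKO libraries (47.2 CPM). The part of this in the Bak1 and Bcl2l11 values was not tested beyond leaving the library out. B lineage markers (7 genes) summed to 7.5, 35.1 and 104 CPM in Rab27aKO libraries 1 to 3 with CpG and to 6.61, 29.7 and 92.5 CPM in those without, against 32 to 43.1 CPM in wild-type with CpG and 27 to 35.4 CPM without. Erythroid markers (8 genes) followed the same order in the knockout, with 534 to 6260 CPM with CpG and 452 to 6220 CPM without, against 4070 to 5350 CPM in all wild-type libraries. Of these, Hbb-bt stood at 0.615 to 6.96 CPM in Rab27aKO, against 308 to 453 CPM in wild-type. It was low even in libraries 3, where Hba-a1 (2300 and 2310 CPM) exceeded wild-type (1200 to 1510 CPM). The erythroid sum is therefore not a like measure in the 2 genotypes. Immature and cycling neutrophil precursor markers (8 genes) also followed it, at 697, 744 and 1160 CPM in Rab27aKO with CpG and 630, 738 and 1230 CPM without. In wild-type libraries they summed to 768 to 932 CPM. Eosinophil, basophil and mast cell markers did so too, at 11.9, 19.4 and 49.8 CPM with CpG and 14.8, 15.9 and 39 CPM without. T and NK markers stayed at or below 8.46 CPM. In bulk samples, fewer cells of a type and less RNA per cell cannot be told apart.

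Bcl2 and Bcl2a1d, both known to be expressed in B cells, ran in the order of the B lineage markers in the Rab27aKO libraries with CpG. Bcl2 stood there at 0.611, 1.91 and 3.05 CPM and Bcl2a1d at 2.79, 6.36 and 12.7 CPM. Bcl2l1 (54, 70 and 86.3 CPM), Bcl2a1a (5.15, 5.47 and 7.58 CPM) and the Bcl2a1 sum had the same order there, and Bid (85.2, 69.2 and 63.3 CPM) the opposite one. Without CpG the order held for Bcl2l1 (70.3, 96.6 and 124 CPM), Bcl2a1b and the sum, and not for Bcl2 (0.756, 0.439 and 1.93 CPM) or Bcl2a1d (0.85, 0.351 and 0.754 CPM). The Rab27aKO libraries numbered 3 had the highest B lineage sums of their groups, and also the highest erythroid, precursor and eosinophil, basophil and mast cell sums. Without both, the CpG change of Bcl2a1d in Rab27aKO was 2.93 (edgeR adjusted p = 0.0262) and that of the sum 3.36 (edgeR adjusted p = 6.51e-05). Bcl2l11 then had a log2 change of 0.76 with an edgeR adjusted p of 0.0709, which left 3 of 10 members called. Without both libraries numbered 1 the sum rose by 3.52 (edgeR adjusted p = 3.23e-05) and 4 members were called. The part of B cell RNA in these values was not tested beyond leaving out these libraries. Nor was that of the other cell types whose markers share this order, and they cannot be told apart here.

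**Figure D5:**
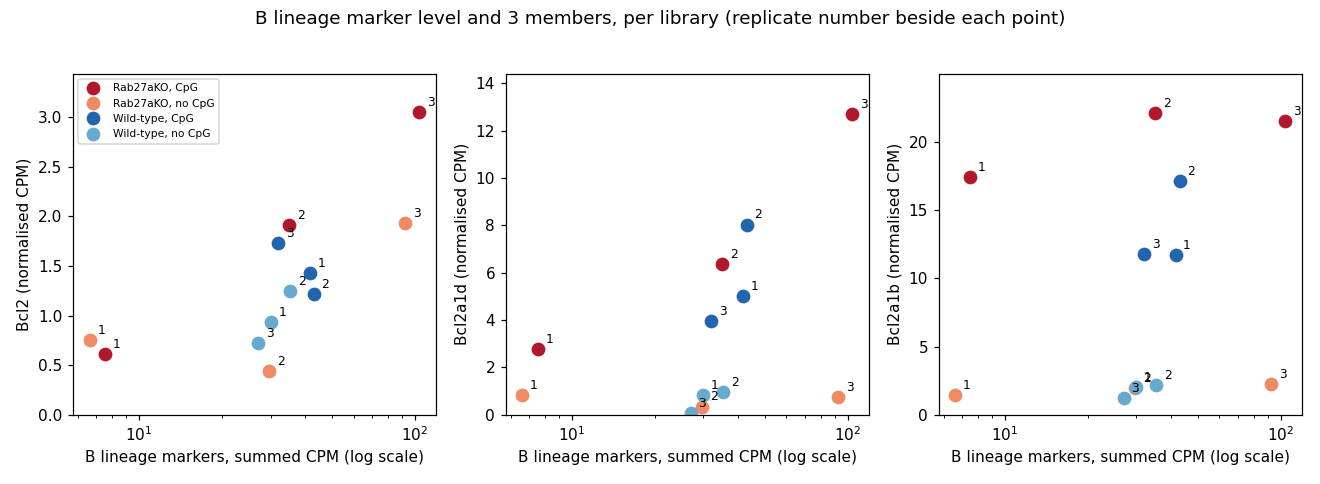
Normalised CPM of Bcl2, Bcl2a1d and Bcl2a1b (y axes) against the summed CPM of 7 B lineage markers (x axes, log scale) in each of the 12 libraries, coloured by group and numbered by replicate. Bcl2 and Bcl2a1d are highest in library 3 of Rab27aKO with CpG, which has the highest marker sum of 104 CPM; Bcl2a1b with CpG is at 11.7 CPM or above at every marker level.

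Of 8 monocyte and macrophage markers, Csf1r and Adgre1 rose with CpG in both genotypes. The 8 genes summed to 1260 to 1650 CPM in Rab27aKO with CpG and 540 to 611 CPM without, and to 1180 to 1210 CPM in wild-type with CpG and 713 to 735 CPM without. Csf1r, the M-CSF receptor gene, averaged 851 ± 138 CPM in Rab27aKO with CpG and 169 ± 13 CPM without, and 550 ± 28.1 CPM in wild-type with CpG and 197 ± 11.9 CPM without. The other 6 markers did not pass in either genotype, and not all were higher with CpG. Ms4a6c was higher, at 7.68, 13 and 30.3 CPM in Rab27aKO with CpG against 0.85, 5.18 and 12.6 CPM without. In wild-type libraries it stood at 8.41, 19 and 10.7 CPM with CpG, against 4.95, 6.68 and 3.93 CPM without. Cx3cr1 was also higher with CpG in each library than in the untreated library of the same number. Ccr2, a monocyte chemokine receptor gene, averaged 8.85 ± 2.82 CPM in Rab27aKO with CpG and 14.7 ± 8.93 CPM without, and 4.33 ± 0.411 CPM in wild-type with CpG and 9.86 ± 2.81 CPM without (log2 -0.74 and -1.19; edgeR adjusted p = 0.266 and 0.105). F13a1, which encodes a coagulation factor subunit, had log2 changes of -0.85 and -0.69. None of the 8 was at 0 in any library. The part of such cells in the Bcl2a1 and Bcl2l11 values was not tested.

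The other BCL2 family genes were mostly flat. Of 16 listed, 9 were tested. Bok, Bik, Hrk, Bcl2l14 and Bcl2l15 had at most 11 counts in any library. Bcl2l10 and the further copy Bcl2a1c had no entry in the counts used and could not be analysed. Bcl2l13 rose in both genotypes, to 48.5 ± 2.71 CPM in Rab27aKO with CpG against 38.1 ± 1.8 CPM without (log2 0.35; edgeR adjusted p = 0.0262) and to 45 ± 2.04 CPM in wild-type with CpG against 33.9 ± 1.97 CPM without (log2 0.41; edgeR adjusted p = 0.0186). The Rab27aKO call was lost in 13 of 22 alternatives (edgeR adjusted p up to 0.242, with curated transcripts only), 7 of them leaving out 1 library (0.0512 to 0.106). The wild-type call was lost in 6 (up to 0.205, also with curated transcripts only), 4 of them leaving out 1 library (0.0793 to 0.111). Scaling by library size alone took both away (0.148 and 0.0579). Pmaip1, which encodes the BH3-only protein NOXA, rose in wild-type cells, to 6.9 ± 1 CPM with CpG against 3 ± 0.69 CPM without (log2 1.19; edgeR adjusted p = 0.0126, and 0.0611 or 0.0546 without library 3 of the untreated or of the CpG group). In Rab27aKO it averaged 8.52 ± 1.66 CPM with CpG and 5.61 ± 1.66 CPM without (log2 0.6; edgeR adjusted p = 0.154). The remaining listed genes did not pass with CpG, Bbc3 (PUMA) among them at 16.4 ± 2.07 CPM in Rab27aKO with CpG and 13.4 ± 1.78 CPM without.

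Bmf was the one tested family gene that differed between genotypes. BMF is a BH3-only protein related to BIM. Bmf averaged 3.82 ± 1.81 CPM in Rab27aKO with CpG, against 19 ± 7.27 CPM in wild-type with CpG (log2 -2.30, SE 0.47; edgeR adjusted p = 0.0121). Without CpG it averaged 4.45 ± 3.34 CPM in Rab27aKO, against 17.8 ± 5.6 CPM in wild-type cells (log2 -1.98, SE 0.47; edgeR adjusted p = 0.0253). The calls were lost when only curated transcripts were counted (edgeR adjusted p = 0.157 and 0.249). With CpG the call was also lost without library 3 of wild-type with CpG (0.0627) or library 2 of Rab27aKO with CpG (0.0824). Without CpG it was lost without wild-type library 2 (0.0756) or 3 (0.109) or Rab27aKO library 1 (0.106) or 2 (0.133), all of the untreated groups.

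Among the inhibitor of apoptosis genes Birc3 rose most with CpG. Birc3, which encodes cIAP2, rose to 734 ± 31.5 CPM in Rab27aKO with CpG against 127 ± 11 CPM without (log2 2.53, SE 0.11; edgeR adjusted p = 3.71e-09), and to 627 ± 45.4 CPM in wild-type with CpG against 151 ± 2.63 CPM without (log2 2.05, SE 0.1; edgeR adjusted p = 3.02e-08). Of 7 tested inhibitors, 2 rose in Rab27aKO and 1 in wild-type cells. Xiap, the other one, had a log2 change of 0.38 in Rab27aKO (edgeR adjusted p = 0.0408), and it no longer passed without 1 of several libraries (up to 0.207, without library 3 of Rab27aKO without CpG) or scaled by library size (0.0532). In wild-type cells Xiap had a log2 change of 0.3 (edgeR adjusted p = 0.168), which passed in the animal block fit (0.0361).

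Of 10 death receptor genes, 3 rose in Rab27aKO and 2 in wild-type cells, and none fell. Cflar, which encodes the caspase-8 inhibitor FLIP, averaged 286 ± 36 CPM in Rab27aKO with CpG and 137 ± 7.63 CPM without (log2 1.07; edgeR adjusted p = 1.41e-05), and 200 ± 6.91 CPM in wild-type with CpG and 123 ± 7.15 CPM without (log2 0.7; edgeR adjusted p = 0.000878). Fas rose in both genotypes, to 293 ± 23.6 CPM in Rab27aKO with CpG against 63.3 ± 8.93 CPM without, and to 201 ± 14.6 CPM in wild-type with CpG against 61.3 ± 5.07 CPM without. With CpG both genes were higher in Rab27aKO than in wild-type cells (Fas log2 0.54, edgeR adjusted p = 0.0188; Cflar log2 0.52, edgeR adjusted p = 0.0122). Without library 1 of wild-type with CpG these were 0.146 for Fas and 0.0865 for Cflar, and without library 1 of Rab27aKO with CpG Fas was at 0.0566. With only the 6 CpG libraries fitted, neither call held (edgeR adjusted p = 0.0588 for Fas and 0.0894 for Cflar). Mlkl, the necroptosis effector, had a log2 change of 0.98 in Rab27aKO (edgeR adjusted p = 0.0352), lost without any 1 of 6 single libraries (0.0538 to 0.139). In wild-type cells its log2 change was 0.59 (edgeR adjusted p = 0.297), and in the animal block fit 0.58 with an edgeR adjusted p of 0.0418.

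Among 14 tested caspase and mitochondrial death factor genes, Aifm1, which encodes apoptosis-inducing factor, was the one that rose. It averaged 21.2 ± 1.19 CPM in Rab27aKO with CpG and 7.86 ± 2.3 CPM without (log2 1.43; edgeR adjusted p = 0.0014), and 16.9 ± 5.98 CPM in wild-type with CpG and 9.18 ± 0.573 CPM without (log2 0.88; edgeR adjusted p = 0.0467). The wild-type call was lost without any 1 of 9 single libraries, with the weakest value without library 3 of wild-type with CpG (log2 0.56; edgeR adjusted p = 0.223). Apaf1, which encodes the apoptosome scaffold, was at 89.2 ± 4.38 CPM in Rab27aKO against 128 ± 23.6 CPM in wild-type cells without CpG (log2 -0.52; edgeR adjusted p = 0.0492, and up to 0.204 without wild-type library 3).

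Among 12 genes whose products act on MCL1, BIM or BID or on their genes, Trp53 alone rose. It averaged 44.3 ± 3.28 CPM in Rab27aKO with CpG and 22.8 ± 2.28 CPM without (log2 0.96; edgeR adjusted p = 0.000302), and 39.8 ± 5.77 CPM in wild-type with CpG and 21.6 ± 2.83 CPM without (log2 0.88; edgeR adjusted p = 0.000996). Of 9 genes for survival cytokine receptors and kinases, Pim1 and Pim2, kinases known for survival signalling below cytokine receptors, rose in both genotypes. Pim1 averaged 310 ± 49.4 CPM in Rab27aKO with CpG and 93.8 ± 5.07 CPM without (log2 1.73; edgeR adjusted p = 7.34e-07), and 208 ± 18.6 CPM in wild-type with CpG and 76.8 ± 5.3 CPM without (log2 1.44; edgeR adjusted p = 6.79e-06). Pim2 rose by 2.12 and 1.49 on the log2 scale in Rab27aKO and wild-type cells. Pim3 passed in wild-type cells in the animal block fit (log2 0.68; edgeR adjusted p = 0.04). Csf2rb, the shared receptor chain for GM-CSF and IL-3, rose in Rab27aKO (log2 0.5; edgeR adjusted p = 0.0134, and 0.0616 without library 3 of Rab27aKO without CpG). With CpG Pim1 was higher in Rab27aKO than in wild-type cells (log2 0.57; edgeR adjusted p = 0.0162). That call was lost without library 1 (0.114) or 3 (0.0559) of wild-type with CpG or library 2 of Rab27aKO with CpG (0.054). It was also lost with only the 6 CpG libraries fitted (edgeR adjusted p = 0.1) and with library size scaling (0.0624).

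Over the 12 libraries, the genes whose centred log2 CPM lay closest to that of the Bcl2a1 sum were Ralgds, Nfkbie, Acod1 and Tbc1d4. Their root mean square difference from it was 0.26, 0.29, 0.31 and 0.35 log2 units, against a median of 1.66 over the 7907 genes averaging at least 5 CPM. Nfkbie, an inhibitor of NF-kB, changed by 3.46 in Rab27aKO and 2.86 in wild-type cells on the log2 scale, and Acod1, the itaconate-producing enzyme, by 2.71 and 2.74. Closest to Mcl1 were Birc2 (0.09), Cybc1 (0.10), Dram1 (0.11) and Ap2b1 (0.12), against a median of 0.30. Closest to Bcl2l11 were Cpeb4 (0.11), a gene with no symbol in the annotation used (0.14), Ctsz (0.15) and Hif1a (0.16), against a median of 0.52. These are descriptions over libraries that share groups, with no test.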

How the data were processed

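PolyA RNA of 12 libraries in 4 groups of 3 was sequenced. The authors deposited estimated counts per RefSeq transcript, not scaled, and TPM values, which are scaled to transcript length and a fixed sum per library, per the file headers; the FPKM values deposited beside them were not used. The submitters' processing notes name Bowtie2 (version not stated), RSEM 1.2.28 and the genome build GRCm39, with no roles. No source used here gives the strandedness of the libraries, so reads of overlapping genes on opposite strands may not be told apart.

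Counts of 54716 transcripts (24908 curated, 29808 predicted) were summed per NCBI gene and rounded; 47.4% were not whole within 0.001. The result was 15986 genes; 15883 found a symbol in a RefSeq annotation of GRCm38.p6. Coding sequences came from the GENCODE annotation and promoters from RefSeq on that build, an earlier one than the authors', so no coordinate is given on GRCm39. Library totals ran from 10928823 to 15513280 counts. No replicate pair agreed within sampling noise (chi-square per gene 7.68 to 47.31).

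Genes were kept by filterByExpr (count 10, total 15), leaving 10802. With edgeR 4.0.16 (R 4.3.3), all libraries entered a single quasi-likelihood model of group means with TMM factors (0.9 to 1.09), a common dispersion of 0.0293 and 8 residual degrees of freedom. A gene passed at a Benjamini-Hochberg adjusted p of at most 0.05 over all genes tested. The Bcl2a1 sum replaced its copies in a second fit of 10800 genes. Each SE was derived from the log2 change and the F statistic of the quasi-likelihood test, not taken from the fit. Intervals are 95% intervals, the fitted change plus or minus a t quantile times this SE. Counts of few reads carry counting error besides. The fit was also run on simulated data with the same dispersion for every gene and no pairing. These libraries are not so simple, and no result here rests on that run.

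Residuals of same-numbered wild-type libraries with and without CpG correlated at 0.28, 0.41 and 0.44, all above 0.1, so the numbers, which come from the labels, were taken as pairing them. In Rab27aKO these were 0.62, 0.09 and 0.68, which did not meet that rule. The main fit uses no pairing. The animal block still pairs both genotypes by number in a single fit. Its wild-type p-values therefore rest partly on the Rab27aKO pairing. Alternatives were library size and relative log expression scaling, DESeq2 1.42.0, no filter, replicate number or animal as a block, only the 6 libraries compared, curated transcripts only, leaving out each library, and leaving out both Rab27aKO libraries numbered 1 or 3, the last chosen after seeing the data. Named genes are the members, up to 4 of each list by adjusted p in either CpG comparison, any listed gene called between genotypes, and the 4 genes most like the Bcl2a1 sum, Mcl1 and Bcl2l11. Some listed genes that this rule names are not reported here. The members and lists were chosen with earlier results of these data known.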

Additional observations from a re-analysis of the deposited data

How the results depend on the processing

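Across up to 22 alternatives (12 of them leaving out 1 library) no change that passed in either setting switched sign. Of the 195 changes followed, 47, none of which passed in the settings concerned, switched sign in at least 1 alternative. Among them were the CpG change of Bmf in Rab27aKO (-0.23, and 0.55 without library 3 of the untreated group) and the genotype difference of Bcl2 without CpG (0.11, and -0.70 without both Rab27aKO libraries numbered 3). The Bcl2a1 copies and sum passed in all 22 in both CpG comparisons. The number of members called with CpG was 3 to 5 in Rab27aKO and 3 to 6 in wild-type cells, with Bcl2l11 lost in 4 alternatives of each and the highest counts under the animal block. That block gave the Rab27aKO change of Bcl2l1 as -0.46 (edgeR adjusted p = 0.00116) and that of Foxo3 as -0.37 (0.00395), and there the calls it made included Pmaip1 (0.62) and Tnfrsf10b (-0.77). Of the members without CpG, 1 (Bak1) was called between genotypes with DESeq2, no filter and only the 6 libraries compared, and 0 to 1 when leaving out 1 library.

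All genes called with CpG numbered 1257 in Rab27aKO, 2591 under the animal block, and 818 to 1347 without 1 library (818 without library 2 of Rab27aKO without CpG). In wild-type cells they numbered 652, 1824 under the animal block, 425 with curated transcripts only, and 425 to 758 without 1 library (425 without library 1 of the untreated and 432 without library 2 of the CpG group). Between genotypes with CpG they numbered 423, 734 with DESeq2, 253 with only the 6 libraries, 227 with curated transcripts, 824 without both Rab27aKO libraries numbered 3, and 234 to 699 without 1 library (234 without wild-type CpG 1, 699 without Rab27aKO CpG 3). Without CpG they numbered 513, 782 with DESeq2, 283 with curated transcripts, 341 without both Rab27aKO libraries numbered 1, and 278 to 604 without 1 library (328 and 324 without untreated wild-type 1 and 3, 311 and 278 without untreated Rab27aKO 1 and 2). The interaction gave 0, 3 with DESeq2 and 13 under the animal block. The cause of these shifts was not tested. The share of higher calls with CpG in Rab27aKO was 65.1%, 48.7% under library size scaling and 53.3% under the animal block; in wild-type cells it was 78.5% and 57.6% under that block. Between genotypes with CpG it was 43.5%, 33% under library size scaling, 57.1% with DESeq2 and 62.4% without library 3 of Rab27aKO with CpG.

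In Rab27aKO every library correlated best with its own number, a hint from the data only. The animal block gives no genotype comparison, and only the 6 libraries compared gives no interaction. Adding Bcl2a1c to the sum was not run, as this copy had no entry in the counts used. Depth limits Bcl2, at 5 to 39 counts per library, and the Bcl2a1 copies without CpG, at 22 to 46 counts for the sum.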
